A study of Homo sapiens with 4 samples.

Results

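The readers and erasers of N6-methyladenosine (m6A) were examined as a set of 10 genes. They are the YTH domain readers YTHDF1, YTHDF2, YTHDF3, YTHDC1 and YTHDC2, the IGF2BP readers IGF2BP1, IGF2BP2 and IGF2BP3, and the demethylases FTO and ALKBH5. The genes were taken by a rule that names them and uses no threshold on their values, and all 10 were found by symbol among the 18806 genes listed and passed the filter on low values, which left 11971 genes for testing.

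m6A is a methyl mark on adenosines inside mRNA and other RNAs. Writers such as the METTL3 complex and METTL16 place it, the demethylases FTO and ALKBH5 can take it off, and reader proteins that bind the mark pass its effect on to the transcript. Cytoplasmic YTHDF proteins are best known for handing marked mRNA to deadenylation and decay, nuclear YTHDC1 for splicing and export, and the IGF2BP proteins for holding marked mRNA stable. IGF2BP1 and IGF2BP3 are also oncofetal: they are active in the embryo, largely silent in adult liver and often switched on again in hepatocellular carcinoma.

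RNA-seq was conducted on Huh7, a human hepatocellular carcinoma cell line, in 4 libraries. All cells came from a single clone that expressed Cas9, carried a lentiviral guide and were selected with hygromycin B. The guide was non-targeting in the 2 sgNS libraries, labelled WT, and targeted METTL16 in the 2 METTL16 KO libraries, whose label calls the genotype a METTL16 knockdown. Whether both METTL16 KO libraries carry the same guide is not given in the sources used here, so an effect of losing METTL16 and an effect of a guide elsewhere cannot be told apart. The study's methods call the replicates biological, but do not say whether they were separate cultures or transductions, and p-values measure only the spread between these libraries. Each value is a TPM, the share of a library's transcripts that belongs to a gene after correction for transcript length, from which the number of reads behind a gene cannot be had, so that the depth is unknown. In bulk RNA, fewer cells that express a gene and less RNA per cell cannot be told apart.

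METTL16 itself had 26.3 and 25.1 TPM in the sgNS libraries against 17.6 and 18.8 TPM in the METTL16 KO libraries (log2 fold change -0.50, SE 0.062, adjusted p = 2.4e-05 by limma with Benjamini-Hochberg adjustment). An edited coding region need not remove its transcript, and protein is not analysed here. The 8 hepatocyte and hepatoma markers, such as ALB and AFP, were at 410.0 to 10386.5 TPM in every library. Their summed level was 18141 to 18223 TPM in sgNS and 30421 to 30827 TPM in METTL16 KO. AFP alone went from 1737 and 1793 TPM to 10386.5 and 10197 TPM, and 6 of the 8 markers were higher in both METTL16 KO libraries, while TF (2105 and 2039 against 1559 and 1523 TPM) and APOB (1157 and 1170 against 1067 and 1005 TPM) were lower. The 10 markers of leukocytes, macrophages, endothelium and fibroblasts summed to 10.6 to 11.9 TPM in sgNS and 14.7 to 16.5 TPM in METTL16 KO, and 6 of them stayed under 1 TPM in all libraries. Within that list the macrophage marker CD68 was higher in METTL16 KO (3.40 and 2.72 against 8.86 and 8.57 TPM). So was CD14 of monocytes and macrophages (1.21 and 0.91 against 1.61 and 1.66 TPM). PECAM1 of endothelium was lower (5.14 and 4.74 against 3.09 and 2.70 TPM). PDGFRB of fibroblasts was lower too (1.65 and 1.34 against 1.05 and 0.76 TPM). COL1A1 and ACTA2 of fibroblasts and VWF of endothelium, all at 0.80 TPM or less, were higher. The listed markers of endothelium thus went both ways, as did those of fibroblasts, with the ones that rose at very low levels. The part of these shifts in the results was not tested.

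The IGF2BP readers had the 3 lowest fold changes of the set. All 3 fell in METTL16 KO, whereas YTHDF1, YTHDF3, YTHDC1, YTHDC2 and ALKBH5 rose modestly in the values as deposited, and YTHDF2 and FTO did not pass the test. At an adjusted p under 0.05 by limma, 3 members were thus lower and 5 higher. Among all genes tested, 25.6% were called lower and 50.1% higher, so neither count differs much from the background. Both METTL16 KO libraries lay on one side of both sgNS libraries for all 10 members, 4 of them lower and 6 higher, against 30.7% and 56.8% of all genes.

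The typical gene also shifted upwards. Over all genes tested, the log2 fold change had a median of 0.16 in the deposited values, and the 100 most abundant genes held 28.6% and 28.7% of all TPM in METTL16 KO against 32.6% and 32.8% in sgNS. Median-ratio scaling, which divides each library by its median ratio to the average library, brought that median to -0.0016, and quantile normalization, which gives all libraries 1 distribution, brought it to 0.011. With either of them 4 members were lower (IGF2BP1, IGF2BP2, IGF2BP3 and FTO) and 2 higher (YTHDC1 and YTHDC2). Among all genes, 36.5% were then called lower and 36.4% higher with the former, and 35.4% and 37.1% with the latter.

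**Figure D1:**
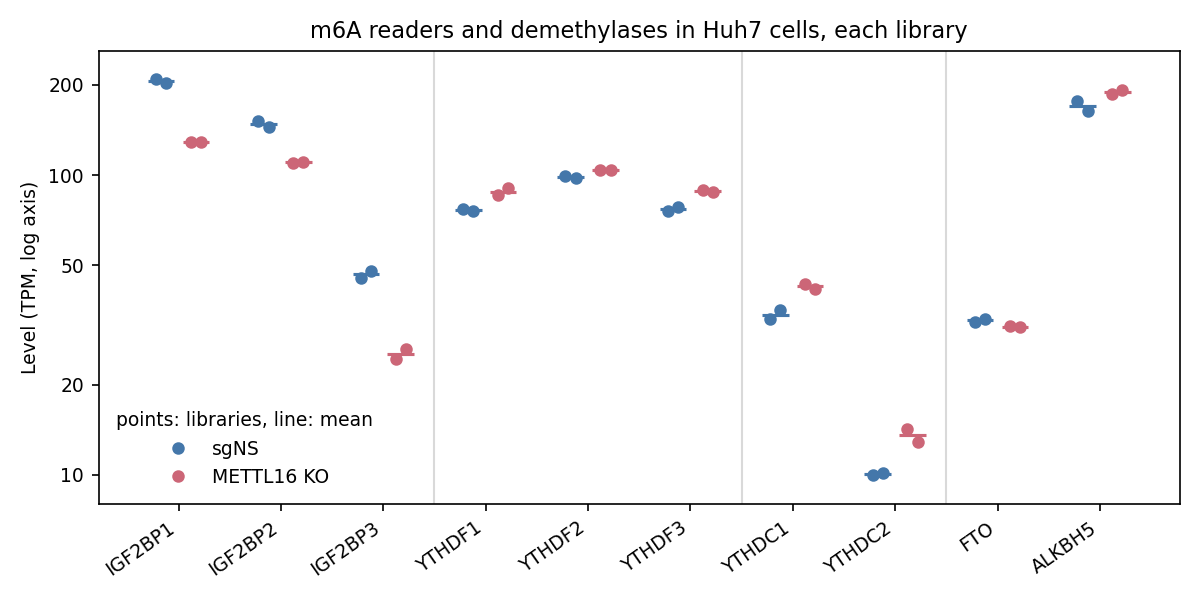
Level of each reader and demethylase in TPM on a log axis, with 1 point for each of the 4 libraries (blue, sgNS; red, METTL16 KO) and a line at each group's mean. The METTL16 KO points of IGF2BP1, IGF2BP2 and IGF2BP3 lie clearly below the sgNS points, those of YTHDC1 and YTHDC2 lie above, and in the other 5 genes the groups lie close together without overlapping; the small upward differences of YTHDF2 and ALKBH5 as deposited turn downward with median-ratio scaling, that of YTHDF2 also with quantile normalization.

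IGF2BP1 was the most abundant reader or eraser in both sgNS libraries and had fallen behind ALKBH5 in METTL16 KO. The gene lies on the plus strand of chromosome 17 of GRCh38 from 48997385 to 49056145. Its protein binds mRNAs of growth genes and is known for shielding them from decay. The sgNS libraries held 209.6 and 202.3 TPM of it, the METTL16 KO libraries 128.6 and 129.4 TPM. Both METTL16 KO libraries were far below the sgNS libraries and almost equal to each other. The mean of 206 ± 5.18 TPM (SD, n = 2) fell by 37.4% to 129 ± 0.573 TPM (SD, n = 2). The log2 fold change was -0.67 (SE 0.036, 95% interval -0.75 to -0.59), with an adjusted p of 3.5e-08 by limma, and 8.04% of all genes tested had a lower one.

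IGF2BP2, the paralog that remains active in many adult tissues and is known for its links to metabolism, fell least of the 3. It lies on the minus strand of chromosome 3 from 185643130 to 185825042. Its level was 151.4 and 144.8 TPM in the sgNS libraries, against 110.1 and 110.6 TPM in the METTL16 KO libraries. The groups were again well apart, with a gap of several times the spread within either. The mean fell by 25.5% from 148 ± 4.62 to 110.3 ± 0.382 TPM (SD, n = 2), with -0.42 as the log2 fold change (SE 0.039, adjusted p = 2.1e-06 by limma). A lower log2 fold change was found for 13.9% of all genes tested.

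IGF2BP3, an oncofetal reader widely used as a carcinoma marker, had the steepest fall of the 10 members. It lies on the minus strand of chromosome 7 from 23310209 to 23470491. Values of 45.4 and 47.9 TPM in the sgNS libraries stood against 24.4 and 26.3 TPM in the METTL16 KO libraries. The higher METTL16 KO library thus stayed well below the lower sgNS library. The mean fell by 45.6% from 46.6 ± 1.77 to 25.4 ± 1.36 TPM (SD, n = 2), with -0.88 as the log2 fold change (SE 0.057, adjusted p = 1.7e-07 by limma). Only 5.00% of all genes tested had a lower log2 fold change.

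The value of IGF2BP3 is less certain than those of its paralogs. In its canonical GENCODE transcript, 34.8% of all stretches as long as a read also occur in transcripts of other genes, mostly in MALSU1, a mitochondrial ribosome factor whose gene overlaps its end on the opposite strand. The library kit keeps the strand, but whether the counting used it is not given in the sources used here. MALSU1 had 107.5 and 111.9 TPM in the sgNS libraries and 138.9 and 146.6 TPM in the METTL16 KO libraries, so that it rose (log2 fold change 0.38, SE 0.042) where IGF2BP3 fell. The same share was 0.741% for IGF2BP2 and 0 for IGF2BP1.

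The 3 IGF2BP genes were lowered to different degrees, which changed the make-up of the family. Their summed level was 406.3 and 395.0 TPM in sgNS and 263.1 and 266.4 TPM in METTL16 KO, or 0.661 of the sgNS mean. IGF2BP2 made up 37.3% and 36.7% of that sum in sgNS and 41.8% and 41.5% in METTL16 KO. IGF2BP3 made up 11.2% and 12.1% in sgNS and 9.28% and 9.89% in METTL16 KO, and IGF2BP1 51.6% and 51.2% against 48.9% and 48.6%. The libraries of the groups did not overlap for any of these shares. An exact permutation test of 2 libraries against 2 cannot give a p under 0.33, which is the value obtained for each sum, share and ratio of the members, so these are descriptions.

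**Figure D2:**
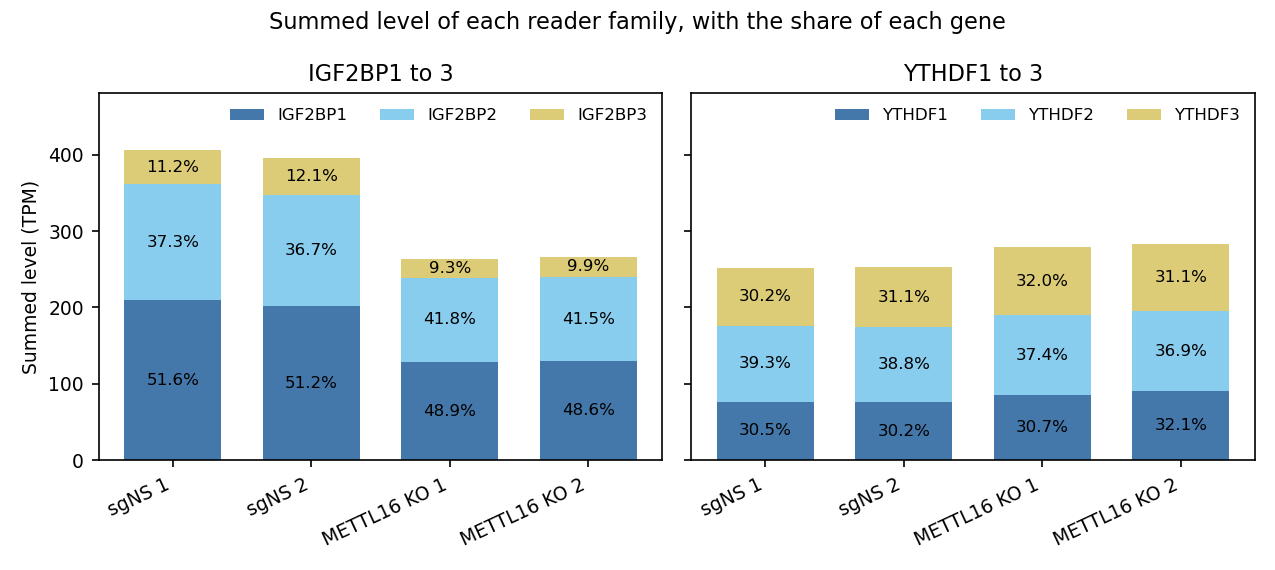
Stacked bars of the summed TPM of IGF2BP1 to 3 (left) and of YTHDF1 to 3 (right) in each of the 4 libraries, with each gene's percentage of the sum written in its segment. The IGF2BP bars drop from about 400.6 to 264.7 TPM on average, whereas the YTHDF bars go from 252 to 281 TPM as deposited, a difference that is absent with median-ratio scaling.

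The 3 IGF2BP transcripts are also known targets of the let-7 microRNA family, which represses oncofetal genes through sites in their 3′ UTRs. let-7 itself was not measured in these libraries. The mature sequence of let-7a from RefSeq (GRCh38.p14) is shown with its seed, bases 2 to 8, in capitals, and is followed by the places in members' 3′ UTRs that carry the complement of the seed, CTACCTC, in capitals with 10 bases on either side. They are shown because the IGF2BP genes are established let-7 targets. FTO carries the same letters; it did not pass the test as deposited and was lower with both other scalings. The part of let-7 in any change was not tested.
let-7a: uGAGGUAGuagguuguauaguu
IGF2BP1, chr17:49051076-49051082, plus strand: gcgaagtaaaCTACCTCaaggtatgaa
IGF2BP1, chr17:49053713-49053719, plus strand: gtgctagtaaCTACCTCacagagcccc
IGF2BP1, chr17:49054367-49054373, plus strand: aatggattaaCTACCTCaatccttaca
IGF2BP1, chr17:49055012-49055018, plus strand: tttgttttatCTACCTCttagcaaaac
IGF2BP2, chr3:185644221-185644227, minus strand: acagaagaagCTACCTCaggtgttttt
IGF2BP3, chr7:23311796-23311802, minus strand: ttttactcaaCTACCTCaggtattcag
FTO, chr16:54115259-54115265, plus strand: actgactgccCTACCTCcctcccttcc

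The coordinates are those of the 7 matching bases on GRCh38. Only the sense strand of the canonical GENCODE transcript was searched. IGF2BP1 held 4 sites in a 3′ UTR of 6701 bases, a number that 0.0614% of 19538 annotated 3′ UTRs reach, while IGF2BP2, IGF2BP3 and FTO held 1 each and the other 6 members held 0. At least 1 site was found in 9.77% of those 3′ UTRs. These shares take no account of length, and a longer 3′ UTR has more room for a match. The 10026-base 3′ UTR of FTO is the longest among the members. A match of 7 letters is a description of the sequence and does not show that the site is used.

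A list of 8 other genes described with let-7, of which DICER1 and NRAS are broadly active and not oncofetal, held 4 that fell and 1 that rose. The list's median was -0.13 on the log2 scale, against 0.16 for all genes tested, of which 25.6% fell and 50.1% rose. HMGA2, a chromatin architectural factor with 4 sites of the same letters, fell from 224.4 and 241.4 TPM to 80.0 and 77.7 TPM, a log2 fold change of -1.56 (SE 0.043, adjusted p = 2.7e-10 by limma). IGDCC3, an immunoglobulin superfamily member that also holds 4 sites, fell by 1.07 on the log2 scale. LIN28B, the RNA-binding protein that blocks let-7 maturation and that holds 4 sites too, had overlapping groups and a log2 fold change of -0.046 that did not pass the test. TRIM71, a stem cell RNA-binding protein with 6 sites, the most in the list, had a log2 fold change of -0.30 and fell. DICER1, the enzyme that cuts microRNA precursors, holds 0 sites and fell too, with a log2 fold change of -0.20. ARID3A, a DNA-binding protein with 2 sites, had a log2 fold change of 0.0015 and the GTPase NRAS, with 1 site, one of -0.056, neither past the test. ARID3B, a paralog of ARID3A with 1 site, rose by 0.54. With median-ratio scaling 7 of the 8 were lower, LIN28B among them, and ARID3B was still higher, against 36.5% lower and 36.4% higher among all genes.

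**Figure D3:**
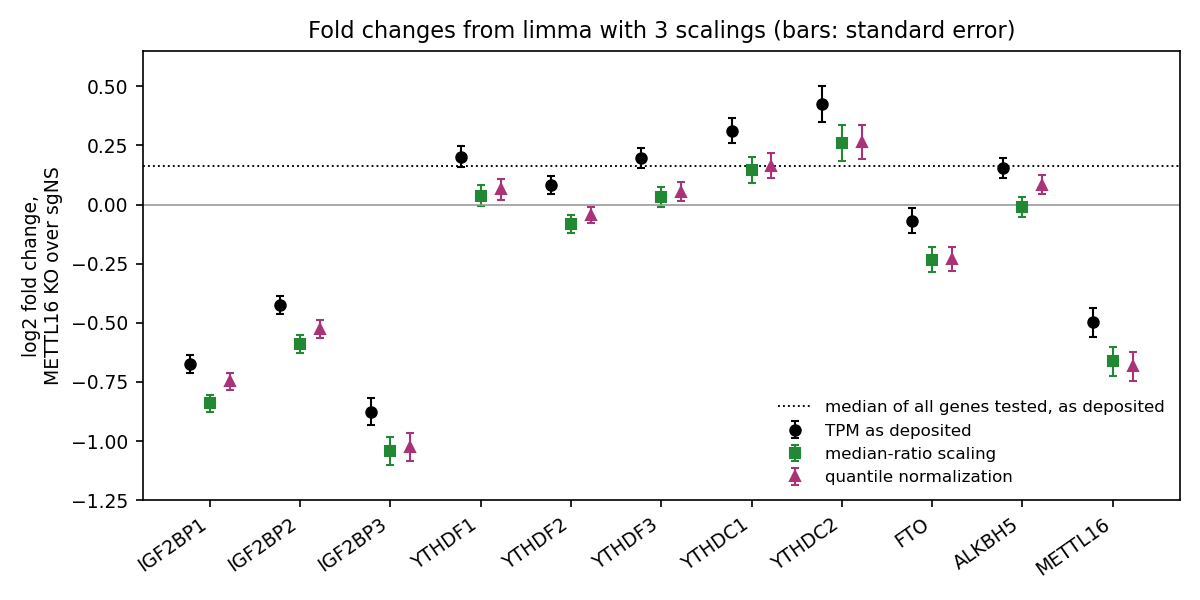
log2 fold change of METTL16 KO over sgNS for the 10 members and METTL16, from limma on TPM as deposited (circles), after median-ratio scaling (squares) and after quantile normalization (triangles), with bars of 1 standard error and a dotted line at the median of all genes as deposited, 0.16. IGF2BP1, IGF2BP2, IGF2BP3 and METTL16 stay between -1.04 and -0.42 in all 3, YTHDC1 and YTHDC2 stay above 0, YTHDF2 lies above 0 only as deposited, and ALKBH5 lies below 0 only with median-ratio scaling.

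The 3 cytoplasmic YTHDF readers stayed close to the typical gene. They share a YTH domain that binds m6A directly and were listed at similar levels, with YTHDF2 the most abundant. YTHDF1, known for promoting translation of marked mRNA, lies on the minus strand of chromosome 20 from 63195429 to 63216139. Both METTL16 KO libraries, at 85.5 and 90.6 TPM, lay above the sgNS libraries, at 76.9 and 76.1 TPM (log2 fold change 0.20, SE 0.044, adjusted p = 0.0014 by limma). This is close to the median gene, and the value was 0.037 under median-ratio scaling and 0.064 under quantile normalization, neither past the test.

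YTHDF2, the reader that recruits the CCR4-NOT deadenylase to marked mRNA, lies on the plus strand of chromosome 1 from 28736621 to 28769775. The sgNS libraries held 99.1 and 97.9 TPM of it and the METTL16 KO libraries 104.4 and 104.2 TPM. The groups did not overlap but lay only 5.88% apart. The log2 fold change of 0.082 (SE 0.038, 95% interval -0.0018 to 0.17) had an adjusted p of 0.070 by limma and turned to -0.083 under median-ratio scaling and to -0.044 under quantile normalization. Of its read-length stretches 7.41% also occur in a processed pseudogene, YTHDF2P1, or in an antisense lncRNA.

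YTHDF3, which works together with its paralogs, lies on the plus strand of chromosome 8. Its level was 76.0 and 78.3 TPM in the sgNS libraries, against 89.2 and 87.7 TPM in the METTL16 KO libraries. The log2 fold change of 0.20 (SE 0.041, adjusted p = 0.0012 by limma) was 0.031 under median-ratio scaling and 0.054 under quantile normalization, neither past the test. Its rise was of the same size as that of YTHDF1. The summed level of the 3 genes was 251.9 and 252.3 TPM in sgNS and 279.1 and 282.5 TPM in METTL16 KO. YTHDF2 made up 39.3% and 38.8% of that sum in sgNS and 37.4% and 36.9% in METTL16 KO, a share that dividing a library by a factor leaves as it is.

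The summed IGF2BP level was 1.61 and 1.57 times the summed YTHDF level in the sgNS libraries and 0.943 times in both METTL16 KO libraries. IGF2BP transcripts thus outnumbered YTHDF transcripts in sgNS and did not in METTL16 KO.

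The YTHDC readers rose by more than the median gene, and their rises were past the test as deposited and with both other scalings. As deposited, 62.4% of all genes tested had a lower log2 fold change than YTHDC1 and 70.7% a lower one than YTHDC2. YTHDC1, the nuclear reader that links m6A to splicing and export, lies on the minus strand of chromosome 4 from 68310387 to 68350090. Its level was 33.1 and 35.4 TPM in the sgNS libraries, against 43.5 and 41.6 TPM in the METTL16 KO libraries. All METTL16 KO values were above all sgNS values, with a gap larger than the spread within either group. The mean went from 34.2 ± 1.58 to 42.5 ± 1.36 TPM (SD, n = 2), a rise of 24.2% (log2 fold change 0.31, SE 0.054, adjusted p = 3.2e-04 by limma). With median-ratio scaling the log2 fold change was 0.15 (adjusted p = 0.032) and with quantile normalization 0.16 (adjusted p = 0.022).

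YTHDC2, an RNA helicase with a YTH domain that is best known from meiosis in germ cells, was the least abundant member. It lies on the plus strand of chromosome 5 from 113513694 to 113595285. Values of 9.99 and 10.1 TPM in the sgNS libraries stood against 14.2 and 12.9 TPM in the METTL16 KO libraries. The sgNS libraries nearly coincided and both METTL16 KO libraries were higher. Its rise of 34.7% was the largest among the members, with a log2 fold change of 0.42 (SE 0.077, 95% interval 0.25 to 0.59, adjusted p = 4.3e-04 by limma) as deposited and 0.26 with either of the other scalings (adjusted p = 0.0098 with median-ratio scaling). An unmoderated model of each gene alone left both YTHDC readers just short of the threshold, at a Benjamini-Hochberg adjusted p of 0.059 for YTHDC1 and 0.0503 for YTHDC2.

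The fold changes of the demethylases were closer to 0 than those of the IGF2BP readers. FTO, a dioxygenase that removes m6A and the cap-adjacent mark m6Am, lies on the plus strand of chromosome 16 from 53701692 to 54158512. The sgNS libraries held 32.3 and 33.2 TPM of it, the METTL16 KO libraries 31.3 and 31.2 TPM. The METTL16 KO libraries were slightly lower, and the 95% interval of the log2 fold change of -0.068 ran from -0.18 to 0.046 (SE 0.051, adjusted p = 0.25 by limma). With median-ratio scaling the log2 fold change was -0.23 (adjusted p = 0.0020) and with quantile normalization -0.23 (adjusted p = 0.0028), so that the call on FTO depends on the scaling.

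ALKBH5, a nuclear m6A demethylase, was the most abundant member in METTL16 KO. It lies on the plus strand of chromosome 17 from 18183078 to 18209954. The sgNS libraries held 176.6 and 164.0 TPM of it and the METTL16 KO libraries 187.2 and 191.8 TPM. The groups did not overlap, but the sgNS libraries differed from each other by more than the gap between the groups. The log2 fold change of 0.16 (SE 0.042, adjusted p = 0.0056 by limma) equalled the median gene to 2 decimals, turned to -0.010 with median-ratio scaling and missed the threshold at an adjusted p of 0.086 without METTL16 KO replicate 2. The ratio of ALKBH5 to FTO was 5.48 and 4.93 in sgNS and 5.98 and 6.15 in METTL16 KO, and 8.40% of the read-length stretches of ALKBH5 also occur in an antisense lncRNA.

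The order of the members by TPM changed at its top and near its bottom. In sgNS it ran from IGF2BP1 through ALKBH5, IGF2BP2 and YTHDF2 to the pair YTHDF1 and YTHDF3, then IGF2BP3, the pair YTHDC1 and FTO, and YTHDC2 last. In METTL16 KO ALKBH5 stood above IGF2BP1, and IGF2BP3 stood below YTHDC1 and FTO. YTHDF1 and YTHDF3 could not be ordered in either group, because they changed places between its libraries. YTHDC1 stood just above FTO in both sgNS libraries, although their values overlapped across those libraries.

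The nonamer TACAGAGAA, a sequence in which METTL16 is known to methylate U6 snRNA and a hairpin of MAT2A mRNA, was searched for on the sense strand of the members' canonical transcripts. It occurred 0 times in all 10, and 3.33% of 20046 canonical transcripts hold it. This covers these letters in these transcripts only.

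The partners of the readers and transcripts bound by them were taken from lists chosen by function. Their counts stand against 50.1% of all genes tested that rose and 25.6% that fell as deposited, and against 36.4% and 36.5% with median-ratio scaling. These lists are small and nothing particular to any of them was tested. The lists, that of let-7 included, share some genes, such as LIN28B and HMGA2, so their counts are not separate. Of 19 tested genes of deadenylation and decay, to which YTHDF2 delivers its targets, 12 rose and 2 fell, and the median of the list was 0.18 on the log2 scale. CNOT10, a CCR4-NOT subunit, rose by 0.52, as did UPF1, the helicase of nonsense-mediated decay. PAN2, a deadenylase, and CNOT8, a catalytic CCR4-NOT subunit, had log2 fold changes of -0.31 and -0.24 and fell. With median-ratio scaling 6 rose and 7 fell, close to the shares among all genes, and these 4 genes kept their direction.

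Of 8 tested nuclear partners of YTHDC1, 3 rose and 3 fell, around a median of 0.0071. The mRNA export receptor NXF1 rose by 0.56 and the nuclear matrix protein SAFB2 by 0.54. CPSF6, of the cleavage factor that selects polyadenylation sites, and the splicing factor SRSF3 had log2 fold changes of -0.24 and -0.21 and fell. With median-ratio scaling 5 of these 8 fell and 3 rose, around a median of -0.16. Among 15 other RNA-binding proteins described with m6A, 4 fell and 3 rose, with a median of -0.052. SND1, a Tudor domain nuclease, had 209.7 and 203.7 TPM in the sgNS libraries and 121.9 and 121.5 TPM in the METTL16 KO libraries (log2 fold change -0.76, SE 0.036, adjusted p = 1.2e-08 by limma). RBMX, which binds RNA that m6A has unfolded, had a log2 fold change of -0.44 and fell. PRRC2B and PRRC2C, large proteins that are paralogs of each other, rose by 0.53 and 0.48. With median-ratio scaling 12 of these 15 fell and 2 rose.

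Of the 7 other AlkB dioxygenases, the enzyme family of FTO and ALKBH5, 3 rose and 1 fell, with a median of 0.20. ALKBH1, a demethylase of transfer RNA and of mitochondrial RNA, rose by 0.65 from 16.3 and 14.2 TPM to 24.5 and 23.4 TPM. ALKBH3, which repairs alkylated nucleic acids, rose by 0.61, and mitochondrial ALKBH7 had a log2 fold change of -0.23 and fell, a call that ended without METTL16 KO replicate 2 (-0.17, adjusted p = 0.075 by limma). In the writer complex of METTL3, 5 of 8 genes rose and 1 fell, around a median of 0.29. The gene that fell was its catalytic subunit METTL3, from 68.9 and 66.9 TPM to 31.0 and 29.8 TPM (log2 fold change -1.16, SE 0.049, adjusted p = 5.2e-09 by limma). The adaptor CBLL1 and the scaffold protein ZC3H13 rose by 0.53 and 0.43. With either of the other scalings 4 of the 8 rose and 3 fell, WTAP and RBM15B besides METTL3, and among the AlkB genes 2 rose and 1 fell.

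Among 12 tested transcripts described as bound by IGF2BP proteins, 7 rose and 1 fell in the values as deposited. Their median was 0.31 on the log2 scale, against 0.16 for all genes. IGF2, the growth factor for which the family is named, rose from 1213 and 1087 TPM to 1887 and 1892 TPM, a log2 fold change of 0.72 (SE 0.042, adjusted p = 7.3e-08 by limma). MYC, a growth regulator and textbook IGF2BP target, rose from 68.2 and 65.9 TPM to 111.7 and 108.9 TPM, by 0.72 on the log2 scale as deposited and by 0.55 after median-ratio scaling. ABCB1, a drug efflux pump, rose from 18.8 and 18.6 TPM to 78.2 and 78.0 TPM, a log2 fold change of 2.06. The transcript that fell was HMGA2, already counted among the let-7 targets. With median-ratio scaling 6 rose and 4 fell, and with quantile normalization 7 rose and 3 fell.

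**Figure D4:**
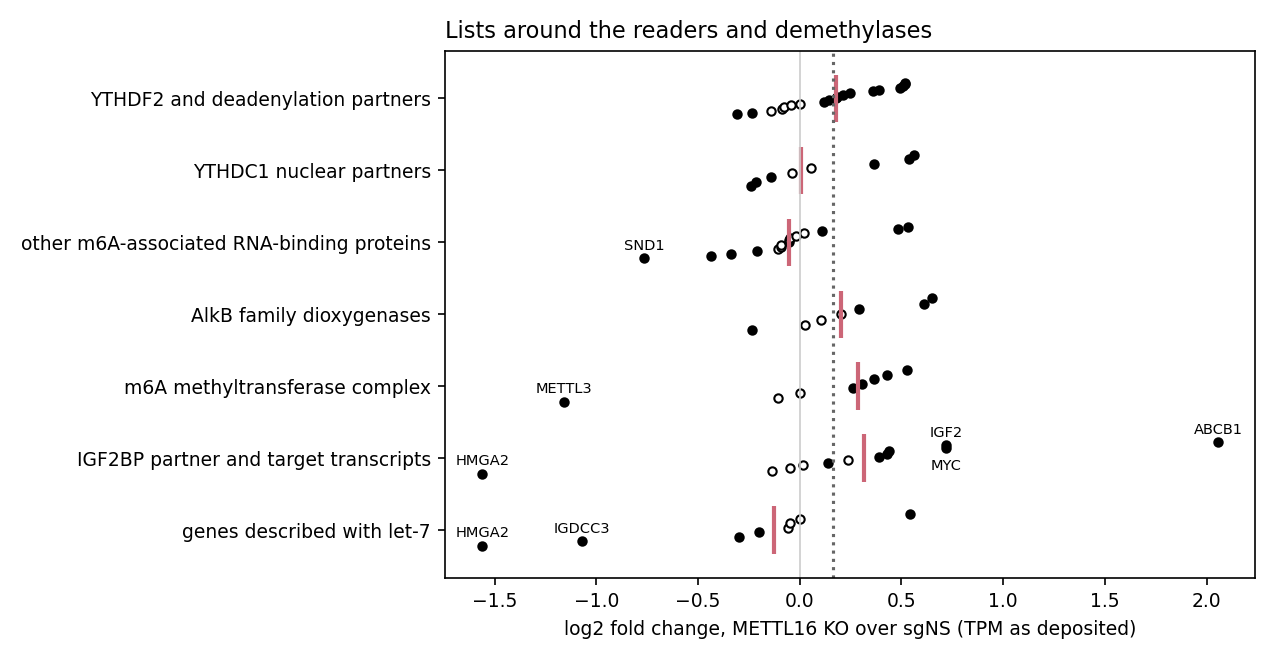
log2 fold change of METTL16 KO over sgNS, from TPM as deposited, for each tested gene of the 7 lists, with filled points past an adjusted p of 0.05, open points not past it, a red bar at each list's median and a dotted line at the median of all genes tested, 0.16. METTL3, HMGA2 and IGDCC3 lie furthest to the left and ABCB1 furthest to the right; median-ratio scaling shifts all points to the left by about 0.16, and the count of rises among deadenylation partners then falls from 12 to 6.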

How the data were processed

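Trimming was done by the authors with Cutadapt, alignment to GRCh38 with STAR and quantification with RSEM; versions, annotation and use of strand in counting are not given in the sources used here. The deposited table holds TPM per gene symbol, rounded to 2 decimals; RPKM is the unit named in the methods, yet every column adds up to 1000000. For the library the labels name both removal of ribosomal RNA and an mRNA kit.

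log2(TPM + 0.1) was tested, for 11971 genes whose mean over the 4 libraries reached 1 TPM, with limma 3.58.1 in R 4.3.3 (lmFit, eBayes with trend, two-sided, Benjamini-Hochberg adjustment over all genes tested), which had been tested on simulated data. Unlike the libraries, the simulated data held few changed genes and no shift of the median gene. On this scale the changes of low genes are understated. Members and lists were chosen with earlier results of these data known. The genes named are the members, METTL16 and, in each list, up to 2 with the largest rise and 2 with the largest fall past an adjusted p of 0.05 without overlap between groups; MALSU1, MYC, WTAP, RBM15B, the markers named and the rest of the let-7 list were added after their values were seen. CNOT3, KHDRBS1 and H19 are not analysed here, and NXF3, LIN28A and CD44 were under the filter. Gene positions, 3′ UTRs and site searches rest on GENCODE release 44. The 13 alternatives changed the pseudocount (1 or 0.01), the filter (all genes above 0, or a mean of 5 TPM), the scaling (median-ratio, quantile), the block, the variance model, or left out a library.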

Additional observations from a re-analysis of the deposited data

How the results depend on the processing

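The falls of IGF2BP1, IGF2BP2, IGF2BP3 and METTL16 kept their direction and stayed past the threshold under all 13 alternatives, with log2 fold changes of -0.84 to -0.65, -0.59 to -0.39, -1.04 to -0.82 and -0.68 to -0.45. Without single libraries they ran from -0.70 to -0.65, -0.46 to -0.39, -0.93 to -0.82 and -0.54 to -0.45. With median-ratio scaling, YTHDF1 (0.037) and YTHDF3 (0.031) lost the call, FTO (-0.23) gained it, and YTHDF2 (-0.083) and ALKBH5 (-0.010) changed sign. With quantile normalization, YTHDF1 (0.064), YTHDF3 (0.054) and ALKBH5 (0.084) lost the call, FTO (-0.23) gained it, and YTHDF2 (-0.044) changed sign. The number of members that rose was 2 under both and 2 with an unmoderated linear model, which ended the calls of YTHDF1 (0.20), YTHDC1 (0.31), YTHDC2 (0.42) and ALKBH5 (0.16) and passed YTHDF2 (0.082); ALKBH5 (0.16) also lost it without the trend, and YTHDF2 (0.082) gained it with all genes above 0 tested. Leaving out a library gave 0.10 to 0.21 for ALKBH5, whose call ended without METTL16 KO replicate 2 (0.14). The difference in summed TPM was -135.9 for the IGF2BP genes (-174.3 with median-ratio scaling, -156.5 with quantile normalization) and 28.7 for the YTHDF genes (-1.89 and 3.64), and that of their ratio was -0.65 (-0.61 with quantile normalization). The cause was not tested, except that both scalings by construction take out the shift of the median gene. For genes named from the lists, 294 of 299 values under alternatives kept direction and side of the threshold, 5 lost the call (PAN2, ALKBH3, ALKBH7 and ZC3H13 with an unmoderated linear model, at adjusted p of 0.093, 0.15, 0.13 and 0.0502, and ALKBH7 without METTL16 KO replicate 2) and 0 turned; 17 of 182 list counts moved by over 1.5 times.

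Same-numbered libraries did not deviate together (r = -0.044 across 11971 genes, which are not independent replicates). With 2 libraries in each group this cannot show whether the samples were prepared in pairs. With the replicate block 3112 genes were lower and 6048 higher, and no call on a member changed (log2 fold changes the same, YTHDF2 at 0.082 and FTO at -0.068 not past the test). From 4 libraries this model leaves little to estimate a gene's own spread, so its p-values rest mostly on the spread of other genes. Depth is unknown, and values rounded to 2 decimals limit low genes; YTHDC2, near 10 TPM, has the largest standard error of the members.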
